A study of Mus musculus with 29 samples.

Results

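Chemokines are small secreted proteins that steer the migration of leukocytes and of some tumour cells, and chemokine receptors are the G protein-coupled receptors that read them. The genes described here are 39 members of that system in the mouse, named by symbol, 28 ligand genes and 11 receptor genes. A gene was measured where the platform annotation mapped a probe set, the array's unit of measurement, to its symbol alone. By that rule 38 of the 39 were measured among 18193 genes in all, with 63 probe sets between them. For the 16 genes with more than 1, the probe set of highest mean was used. The probe set for Ccl19, a ligand of Ccr7, maps to several genes, so Ccl19 has no value here and is counted in no result, which leaves 27 ligands and 11 receptors.

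The 29 samples came from mice of strain 129X1/SvJ that carry the TH-MYCN transgene, in which the tyrosine hydroxylase promoter drives the human MYCN oncogene in cells of the sympathoadrenal lineage and neuroblastoma arises. There were 24 primary abdominal tumours, 7 from animals labelled wild type for caspase-8, the protease that starts apoptosis from death receptors, and 17 from animals labelled caspase-8 deficient, and 5 samples of total bone marrow, 2 wild type and 3 deficient. All groups share the transgene and the strain, and no marrow without the transgene was analysed here. Ages, the caspase-8 allele, any Cre driver, and whether a marrow held tumour cells are not given in the sources used here. The sources used here do not say whether any animal gave more than 1 sample, and the p-values below reflect only how these samples spread. Values are log2 expression after RMA, 1 array per sample, and a difference of 1 on this scale is a doubling.

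A few facts of the whole series bear on the results. Casp8 itself was at 5.88 ± 0.57 (SD, n = 7) in tumours of the wild type group and 5.62 ± 0.44 (SD, n = 17) in the deficient group, and at 9.46 ± 0.23 (SD, n = 2) and 9.14 ± 0.12 (SD, n = 3) in marrow. Which part of Casp8 is removed is not stated in the labels, and a probe set outside that part would check nothing. The tissue labels held up: the mean of a sympathoadrenal marker list was 10.1 to 10.9 in tumours and 3.81 to 3.997 in marrow, and that of a neutrophil list 3.77 to 5.32 and 11.8 to 12.2. Marrow also stood above tumours in the lists for B cells (6.26 to 7.72 against 3.87 to 5.38), T and NK cells (5.19 to 5.46 against 3.40 to 4.2) and dendritic cells (5.70 to 6.04 against 3.90 to 4.58). The macrophage list overlapped, at 7.43 to 7.90 in marrow and 5.87 to 8.32 in tumours. The fibroblast list was at 5.52 to 6.55 in marrow and 6.39 to 8.90 in tumours. Xist, expressed from the inactive X of females, was at 5.11 to 6.20 in the 2 wild type marrow samples and at 11.6 to 12.2 in the 3 deficient ones, so genotype and sex cannot be told apart in marrow. High Xist was seen in 3 wild type and 10 deficient tumours.

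Cxcl12 and its receptor Cxcr4 are the pair that holds blood-forming cells in bone marrow: stromal cells there secrete Cxcl12, and cells that carry Cxcr4 follow it. The pair is often discussed as a route by which tumour cells home to marrow. In these data both genes were far lower in tumours than in marrow, and neither differed between the genotypes in tumours beyond the spread between samples. The promoters of both are shown because the pair is the centre of the comparison; each run is the 250 bases that end at the base before the RefSeq start on assembly GRCm38.p6, for Cxcl12 chr6:117168285-117168534 on the plus strand and for Cxcr4 chr1:128592300-128592549 on the minus strand, written 5′ to 3′. Capitals mark a match to TATAAA, the core of the TATA box.
Cxcl12: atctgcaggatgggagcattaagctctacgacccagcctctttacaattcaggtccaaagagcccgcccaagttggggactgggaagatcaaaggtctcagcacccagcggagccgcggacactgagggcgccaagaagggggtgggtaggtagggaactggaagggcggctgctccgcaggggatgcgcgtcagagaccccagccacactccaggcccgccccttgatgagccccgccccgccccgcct
Cxcr4: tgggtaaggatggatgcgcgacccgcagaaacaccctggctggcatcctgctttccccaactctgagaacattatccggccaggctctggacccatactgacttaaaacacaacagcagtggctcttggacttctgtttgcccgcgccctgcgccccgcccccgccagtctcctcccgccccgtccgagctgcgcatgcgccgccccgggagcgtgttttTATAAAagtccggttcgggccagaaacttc
The Cxcl12 run is 64.4% G and C and the Cxcr4 run 61.2%, against a median of 52.4% over the promoters of 27025 genes. Cxcr4 has TATAAA 30 bases before the start, and Cxcl12 has no match to any of the 4 motifs searched.

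Cxcl12, read by the brightest of 3 probe sets, was at 9.60 and 10.18 in the wild type marrow samples and at 10.31, 10.54 and 10.01 in the deficient ones. The 7 wild type tumours ran from 4.62 through a median of 5.14 to 8.17, and the 17 deficient tumours from 4.17 through 5.48 to 7.36. Every tumour therefore lay below every marrow sample, and wild type tumour 1 was the highest tumour. With the genotypes weighted equally the log2 difference between tumours and marrow was -4.45 (SE 0.47), 21.9-fold lower in tumours, with a limma adjusted p of 1.08e-09. A second Cxcl12 probe set gave -5.42 and the dimmest -0.69, all called.

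Cxcr4, read by 1 probe set, was at 9.49 and 9.71 in marrow of wild type animals and at 10.03, 9.78 and 10.39 in that of deficient ones. In wild type tumours it ran from 5.19 through a median of 5.92 to 6.56, and in deficient tumours from 5.25 through 6.12 to 7.26. The highest tumour therefore lay well below the lowest marrow sample. The difference between tissues was -3.79 (SE 0.24, limma adjusted p = 1e-14), 13.9-fold lower in tumours. Tumours spread over a wider range for the ligand, with an SD of 1.02 over 24 tumours, than for the receptor, with 0.52. In bulk samples like these, fewer cells of a type and less RNA per cell cannot be told apart, and no value here assigns either gene to tumour cells.

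**Figure D1:**
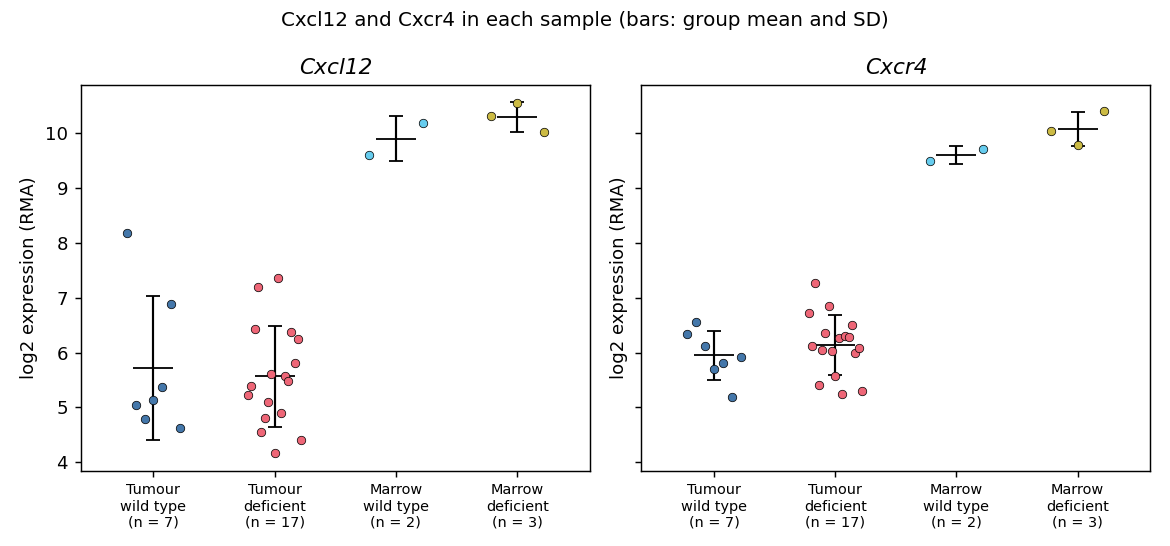
Log2 expression (RMA) of Cxcl12 (left) and Cxcr4 (right) in each of the 29 samples, by tissue and caspase-8 genotype; points are samples, the long bar is the group mean and the whisker 1 SD. All 5 marrow samples lie above 9.4 in both panels, the tumours lie at or below 8.17 for Cxcl12 and 7.26 for Cxcr4, and the genotypes overlap in tumours.

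The genotype comparison of the pair gave small differences. In tumours, deficient minus wild type, Cxcl12 differed by -0.15 (SE 0.44, 95% interval -1.05 to 0.75), and an exact permutation test over all 346104 splits of the 24 tumours gave a two-sided p of 0.753. Its sign was not stable: the difference was 0.26 when wild type tumour 1 was left out, 0.045 when wild type tumour 6 was, 0.17 with array weights, 0.0043 with probe sets averaged and 0.089 in the higher of the number series in the sample titles. Cxcr4 differed by 0.19 (SE 0.22, 95% interval -0.26 to 0.64), with an exact permutation p of 0.426. The intervals are wide enough that neither result shows the genotypes to be alike. In marrow the deficient samples were higher by 0.39 (SE 0.25) for Cxcl12 and by 0.47 (SE 0.23) for Cxcr4, with limma adjusted p of 0.9996 for both. The marrow ranges of Cxcr4 did not overlap between genotypes, those of Cxcl12 did, and sex moves with genotype there. The genotype difference in tumours minus that in marrow was -0.545 (SE 0.94) for Cxcl12 and -0.28 (SE 0.48) for Cxcr4, both with a limma adjusted p of 0.95.

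No relation between the levels of ligand and receptor was detected across tumours. Over 24 tumours Pearson's r of Cxcl12 with Cxcr4 was 0.126 (permutation p = 0.560, adjusted p = 0.793 over 14 ligand and receptor pairs) and Spearman's rho 0.188 (permutation p = 0.378). Without the 2 tumours farthest from the median of Cxcl12 r was 0.0508, and it was -0.142 in the 10 tumours of the lower title series and 0.396 in the 14 of the higher. Ackr3, an atypical receptor that binds Cxcl12 and removes it, was the only gene called higher in tumours among 19 other chemokines and receptors measured, at 4.54 to 6.85 in tumours and 2.85 to 3.70 in marrow. Its difference was 2.25 (SE 0.28, limma adjusted p = 3.78e-08), opposite in sign to Cxcr4. Cxcl12 and Ackr3 had an r of 0.432 over tumours (permutation p = 0.0345, adjusted p = 0.242), at 0.130 in the lower and 0.679 in the higher series. Of all genes, 42.2% were called lower in tumours than in marrow and 34.2% higher. Around the pair, a list of 17 measured genes of Cxcl12 handling and marrow retention had 11 lower and 3 higher in tumours. Those of smallest p were neutrophil proteases: Ctsg (cathepsin G) at -7.75, Mmp9 (matrix metalloproteinase 9) at -6.99 and Elane (neutrophil elastase) at -4.41. Of the genes chosen after their values were seen, Itga4, a subunit of the integrin VLA-4, differed by -4.60, while its partner Vcam1 differed by -0.0099 (SE 0.25) and Kit by 0.082 (SE 0.16).

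The tissue comparison of the whole set was next. Of 38 members 26 passed an adjusted p of 0.05 in limma, 24 of them lower in tumours and 2 higher. Most genes differed between these tissues: 76.4% of all genes passed, 42.2% lower and 34.2% higher. The members' share of calls in either direction is thus close to that of all genes, and 24 of their 26 calls were in the lower direction. The median difference was -0.58 over the members and -0.10 over all genes. Centring each array on its median moved the median of all genes to -0.39 and the share of calls that are higher from 44.7% to 30.8%, and left 1 member called higher. At 2-fold or more 13 members passed, against 29.4% of genes, and 12 of the 13 were lower in tumours. Tumour and marrow ranges did not overlap for 15 members, against 37.8% of genes.

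**Figure D2:**
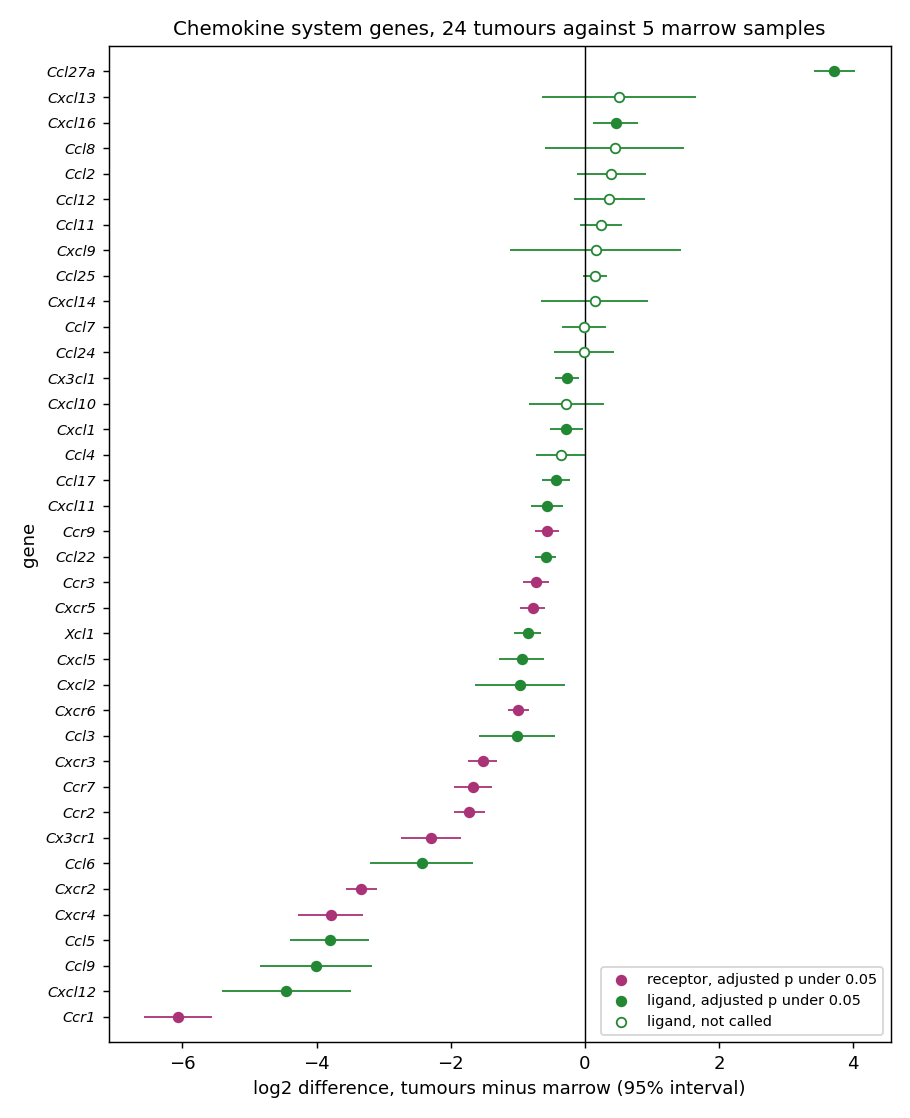
Log2 difference, 24 tumours minus 5 marrow samples with genotypes weighted equally, for the 38 measured members, ordered by size; points are limma estimates, lines 95% intervals, purple receptors, green ligands, filled points an adjusted p under 0.05. All 11 receptors lie left of 0, ligands run from Cxcl12 at -4.45 to Ccl27a at 3.72, and 24 members are filled on the left.

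All 11 receptors were called lower in tumours, against 42.2% of all genes, with a median of -1.67. The ranges of 10 did not overlap between tissues, against 37.8% of all genes. The receptors of myeloid cells are described first. Ccr1, the receptor of Ccl3, Ccl5 and Ccl9 on monocytes and granulocytes, was at 9.96 and 10.01 in marrow of wild type animals and 10.002, 9.88 and 10.71 in that of deficient ones, and at 3.38 to 5.72 in tumours. Its difference of -6.06 (SE 0.25, limma adjusted p = 2.33e-19) was the largest of the members on the probe sets used, and only wild type tumour 5 and deficient tumour 10 were above 5. Cxcr2, which draws neutrophils towards Cxcl1, Cxcl2 and Cxcl5, was at 5.67 and 6.72 in marrow of wild type animals and at 6.61, 6.15 and 6.46 in that of deficient ones. In tumours it was at 2.67 to 3.27, and its difference was -3.33 (SE 0.11, limma adjusted p = 1.49e-21). Cx3cr1, the fractalkine receptor of monocytes and microglia, was at 6.41 to 7.20 in marrow and 3.91 to 6.27 in tumours, a difference of -2.29 (SE 0.22).

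Ccr2, the receptor that brings Ly6C-high monocytes out of marrow, depended on the probe set read. The one of highest mean gave 5.72 to 6.42 in marrow and 3.92 to 4.73 in tumours, a difference of -1.72 (SE 0.11). The other 3 gave -6.66, -4.74 and -2.12, and the first of these was at a mean of 10.12 in marrow. All 4 were lower in tumours and called, with sizes that ran from -1.72 to -6.66. Ccr3, the eotaxin receptor of eosinophils, differed by -0.73 (SE 0.095), at 3.24 to 3.76 in marrow and 2.45 to 3.19 in tumours.

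The receptors of lymphocytes follow. Ccr7, which takes lymphocytes and dendritic cells to lymph nodes, was at 5.34 and 4.29 in marrow of wild type animals, at 5.79, 4.82 and 5.46 in that of deficient ones and at 3.07 to 3.91 in tumours, a difference of -1.67 (SE 0.14). Cxcr3, the receptor of Cxcl9, Cxcl10 and Cxcl11 on activated T and NK cells, differed by -1.53 (SE 0.11), at 5.02 to 5.48 in marrow and 3.34 to 4.13 in tumours. Cxcr6, the receptor of Cxcl16, differed by -0.99 (SE 0.079). Cxcr5, the follicle-homing receptor of B cells, differed by -0.78 (SE 0.090), and Ccr9, the gut-homing receptor, by -0.57 (SE 0.090), the smallest of the receptors and the one whose ranges overlapped. Every receptor stayed lower in tumours and called under every alternative in which it was fitted. The marker lists of neutrophils, B cells, T and NK cells and dendritic cells were higher in marrow too, without overlap, and their part in the receptors' differences was not tested.

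Among the 27 ligands 13 were lower in tumours, 2 higher and 12 not called, with a median of -0.28. Of all genes 42.2% were called lower and 34.2% higher, so the ligands' count of lower calls is near that of all genes. The ligands of myeloid cells and lymphocytes are described first. Ccl9, a macrophage and osteoclast chemokine, was at 10.02 and 9.29 in marrow of wild type animals, at 9.78, 9.72 and 9.79 in that of deficient ones and at 4.28 to 8.03 in tumours. It differed by -4.01 (SE 0.41, limma adjusted p = 5e-10). Ccl6, its neighbour in the genome and also made by myeloid cells, was at 10.43 to 11.09 in marrow and 6.41 to 9.69 in tumours, a difference of -2.43 (SE 0.38). Ccl5 (RANTES), made by T cells, NK cells and platelets, was at 8.12 and 8.37 in marrow of wild type animals, at 8.72, 8.44 and 8.70 in that of deficient ones and at 3.93 to 6.94 in tumours, a difference of -3.81 (SE 0.29). None of these 3 overlapped between the tissues.

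Ccl3 and Ccl4, the macrophage inflammatory proteins, overlapped between tissues. Ccl3 was at 4.91 to 6.53 in marrow and 3.65 to 6.04 in tumours, a difference of -1.01 (SE 0.28, limma adjusted p = 0.0018). In wild type samples alone the Ccl3 difference was -0.52 and not called. Ccl4, whose gene overlaps Ccl3 on the annotation, differed by -0.36 (SE 0.18) and missed the threshold at 0.072; without wild type tumour 1 it was -0.45 and passed. Other ligands lie together near Ccl2. Of these, Ccl2, Ccl7, Ccl8 and Ccl12, which attract monocytes, and Ccl11 (eotaxin) were not called, 0 of 5, with differences from -0.013 to 0.44, while 4 of the 5 genes Ccl5, Ccl9, Ccl6, Ccl3 and Ccl4 further along the same chromosome were lower. Ccl2 was at 4.24 to 4.59 in marrow and 4.2 to 6.30 in tumours, so the marrow samples lay at the low end of the tumours.

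The ligands of neutrophils, which act through Cxcr2, are Cxcl1, Cxcl2 and Cxcl5. Cxcl5 differed by -0.94 (SE 0.16), at 3.25 to 4.37 in marrow and 2.30 to 4.06 in tumours, and stayed called whichever sample was left out. In wild type samples alone it was -0.62 and not called. Cxcl2 differed by -0.97 (SE 0.33, limma adjusted p = 0.0097), but 1 sample carried much of it: deficient marrow 3 was at 6.95 and the other marrow samples at 2.95 to 3.62. Without it the difference was -0.38 and was not called, nor was it without wild type marrow 1, at -0.80. The Cxcl2 call was also lost in wild type samples alone, at -0.20, and in the higher title series, at -0.86. Cxcl1 differed by -0.28 (SE 0.12, limma adjusted p = 0.035) on a probe set whose design allows hybridisation to related sequences. That call was lost without wild type marrow 1, at -0.10, and without 4 other samples (wild type tumours 1 and 3, deficient marrow 1 and 3), its other probe sets gave -0.070 and 0.50, uncalled, and the mean of the 3 gave 0.049.

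Cxcl9, Cxcl10 and Cxcl11 are induced by interferon and draw Cxcr3-bearing T and NK cells. Between tissues only Cxcl11 was called, at 3.95 to 4.32 in marrow and 3.09 to 4.07 in tumours, a difference of -0.56 (SE 0.12). Cxcl9 differed by 0.16 (SE 0.62), with -0.029 on its second probe set, and Cxcl10 by -0.28 (SE 0.28). Within genotype Cxcl10 differed by 0.33 in wild type and by -0.89 in deficient samples, the second called, and without wild type tumour 5 the overall difference was -0.46 and called. The gene Art3 overlaps Cxcl10 and Cxcl11 in the annotation, so probes near its exons could read either.

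The remaining ligands were a mixed group. Ccl17 and Ccl22, the Ccr4 ligands of dendritic cells, were lower in tumours, with differences of -0.43 (SE 0.10) and -0.59 (SE 0.078), and Ccl17 was -0.20 and not called without wild type marrow 1, the highest sample at 5.37, and -0.67 without wild type marrow 2. Xcl1 (lymphotactin), made by T and NK cells, differed by -0.85 (SE 0.098), at 3.43 to 4.32 in marrow and 2.84 to 3.50 in tumours. Cx3cl1 (fractalkine), a membrane-bound ligand that endothelium and neurons display, differed by -0.26 (SE 0.086), a call lost without wild type marrow 1, at -0.22. The Cx3cl1 call was also lost in the higher title series, at -0.18, and in wild type samples alone, at -0.20. Cxcl13, Cxcl14, Ccl24 and Ccl25 were not called, with differences from -0.015 to 0.51. A second probe set of Cxcl13 gave 2.20 and of Ccl25 1.38, both called, and one of Cxcl14 gave -0.92, opposite in sign to the 0.15 of the one used.

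Ccl27a and Cxcl16 were the members higher in tumours. Ccl27a, a skin-homing chemokine that binds Ccr10, was at 4.16 and 4.42 in marrow of wild type animals and at 4.64, 4.61 and 4.99 in that of deficient ones. All 24 tumours were at 7.57 to 8.69, above every marrow sample. The difference was 3.72 (SE 0.15, limma adjusted p = 1.68e-19), 13.2-fold higher in tumours. Its probe set is of a design that can read related sequences, and the annotated gene shares 7 bases with Il11ra1, so other transcripts could add to its signal, which was not tested. Cxcl16, a membrane-bound ligand and scavenger receptor of macrophages, was at 6.18 to 6.65 in marrow and 6.23 to 7.66 in tumours, a difference of 0.46 (SE 0.17, limma adjusted p = 0.014). A second Cxcl16 probe set gave 1.5, called, but the call on the one used was lost with median centring at 0.17, repeated quantile normalization at 0.15, array weights at 0.45, in wild type samples alone at 0.42 and without wild type marrow 2 at 0.39.

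The rest of the system was read from lists of related genes. Their counts of calls between tissues stand beside 42.2% of all genes called lower in tumours and 34.2% higher. Of 19 other chemokines and receptors measured, 15 were lower in tumours and 1, Ackr3, higher. The 3 of smallest p were Ackr1, the Duffy receptor of erythroid cells and venules, at -4.77, Ccrl2, a chemerin-binding receptor, at -3.80, and Ppbp, a platelet chemokine, at -8.44. Of 29 genes of chemokine signalling 22 were lower and 3 higher, with Rgs18, a regulator of G protein signalling in platelets and their precursors, at -6.21, Arrb1 (beta-arrestin 1) at -3.80 and Gnb1, a G protein beta subunit, at 1.73. Of 14 genes that release or induce chemokines 12 were lower, among them Ltb (lymphotoxin beta) at -4.95, Il1b at -3.59 and Adam10, the sheddase of Cx3cl1 and Cxcl16, at -1.67. No gene of these lists, nor of the list around Cxcl12, was called by limma between genotypes in either tissue; at an unadjusted p under 0.05 there were 0 in tumours, and in marrow 1, 1, 0 and 2 in the order given.

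The genotype comparison in tumours asked whether caspase-8 status was reflected in chemokine expression. No member was called, and neither was any gene: 0% passed the adjusted threshold in limma. Without adjustment 3.2% of genes had a p under 0.05, against 1 of 38 members, Cxcl5. Cxcl5 ran from 2.45 through a median of 2.71 to 4.06 in wild type and from 2.30 through 2.63 to 2.88 in deficient tumours. The groups overlapped, with wild type tumours 4 and 1 highest, and the difference was -0.32 (SE 0.14, adjusted p = 0.9997) and -0.13 without wild type tumour 4. Cxcl10 ran from 3.43 through 3.72 to 6.25 and from 3.16 through 3.67 to 4.07, a difference of -0.42 (SE 0.25) of which -0.061 was left without wild type tumour 5. Ccl6 ran from 7.38 through 9.14 to 9.65 and from 6.41 through 7.80 to 9.69, a difference of -0.56 (SE 0.35). Next by p, Ccl24 was at -0.31 (SE 0.20), but 0.0013 without wild type tumour 5. Cx3cl1 was at -0.11 (SE 0.072), but 0.070 with probe sets averaged, and Cxcl2 at -0.24 (SE 0.16), but 0.14 in the lower title series.

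Most members lay slightly lower in deficient tumours. Values were lower for 32 of 38 members, with a median difference of -0.077, against 48.1% of all genes. The count was 24 with array weights, 25 when wild type tumour 1 was left out, 27 when wild type tumour 5 was, and 26 in each title series taken alone. Cell markers moved with it: 11 of 12 macrophage markers and 12 of 13 T and NK cell markers had lower values in deficient tumours and 12 of 12 endothelial markers higher ones, with 0 called by limma in each list and 7 endothelial markers at an unadjusted p under 0.05. The macrophage list mean was 7.20 ± 0.69 (SD, n = 7) for the wild type group and 6.98 ± 0.44 (SD, n = 17) for the deficient group. The gap between 3′ and 5′ control signals, a measure of RNA degradation, was 0.616 ± 0.145 (SD, n = 7) and 0.761 ± 0.175 (SD, n = 17), and with it as a covariate 31 members had lower values. The part of these in the members' shift was not tested.

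**Figure D3:**
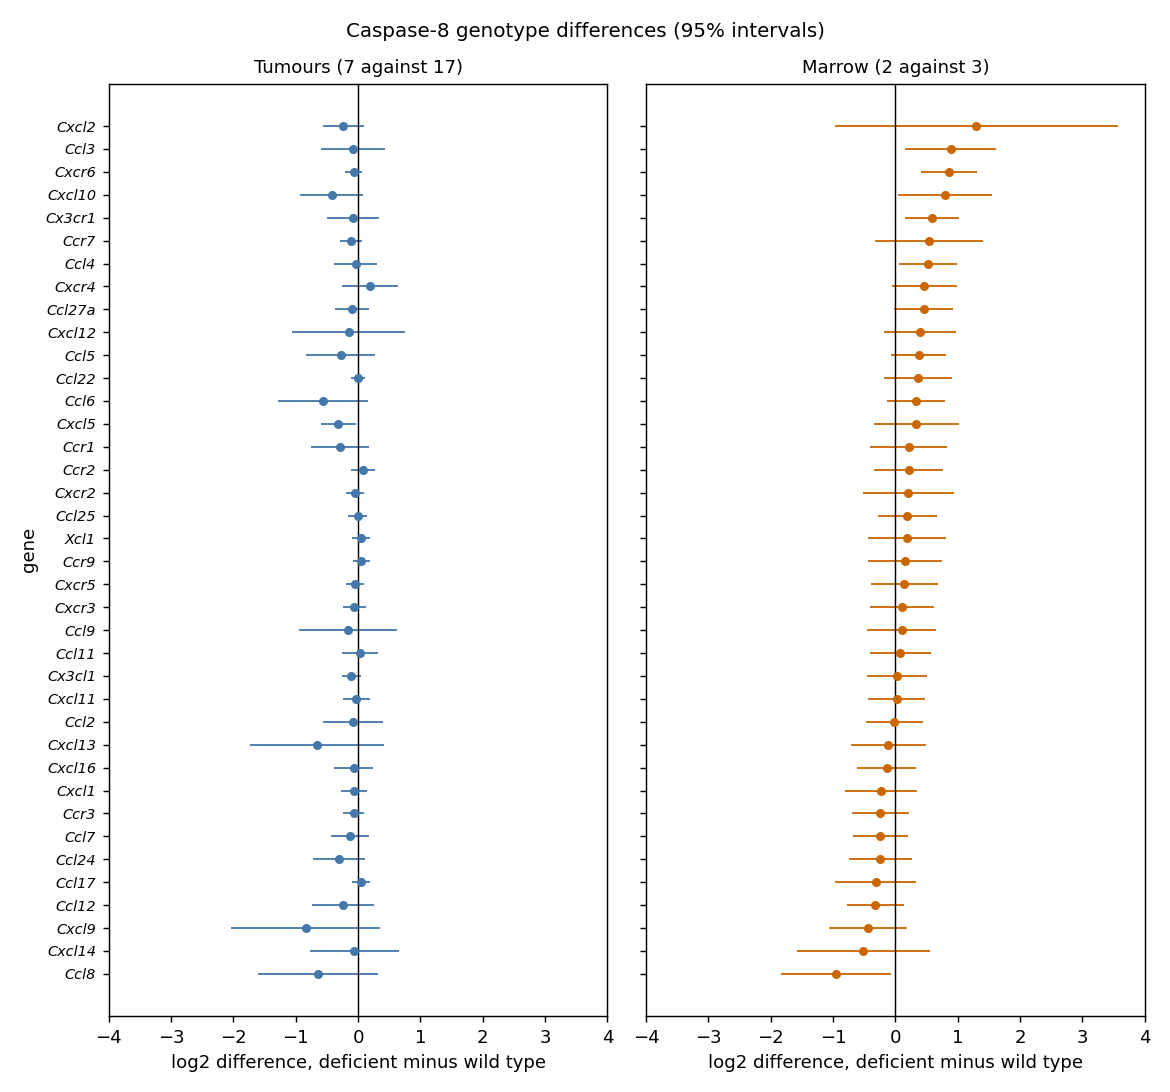
Log2 difference, caspase-8 deficient minus wild type, for the 38 measured members in tumours (left, 7 wild type against 17 deficient) and marrow (right, 2 against 3), in the same order; points are limma estimates and lines 95% intervals. No member is called in either panel, 32 of 38 points lie left of 0 in tumours and 26 of 38 right of 0 in marrow.

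In marrow no member was called either. Of all genes 4 were (0.022%), and 4.05% had an unadjusted p under 0.05, against 6 of 38 members. Cxcr6, the receptor of Cxcl16 on T and NKT cells, was at 3.41 and 3.66 in wild type and at 4.27, 4.59 and 4.31 in deficient marrow, a difference of 0.86 (SE 0.20, limma adjusted p = 0.9996). Cx3cr1 was at 6.75 and 6.41 against 7.09, 7.20 and 7.19, a difference of 0.58 (SE 0.19). Ccl3 was at 4.91 and 5.18 against 5.42, 6.53 and 5.86, a difference of 0.89 (SE 0.32), and Ccl4 beside it differed by 0.52 (SE 0.20). Cxcl10 was at 3.62 and 3.87 against 3.90, 4.65 and 5.05, a difference of 0.79 (SE 0.32). Ccl8, a monocyte attractant, went the other way, at 6.16 and 6.58 against 5.84, 5.81 and 4.60, a difference of -0.96 (SE 0.38). These 6 ranges did not overlap, and neither did those of 6 other members, 12 in all, 9 higher and 3 lower, against 17.2% of all genes without overlap. Of the other members the widest difference was Cxcl2, 1.3 (SE 0.98), which rests on deficient marrow 3. Values were higher in deficient marrow for 26 of 38 members, with a median of 0.17, and sex differs between these groups in the same way as genotype.

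Cxcr6 was the one member whose genotype difference itself differed between tissues. In tumours it was at 2.76 to 3.14 in wild type and 2.66 to 3.16 in deficient samples, a difference of -0.073 (SE 0.068). These tumour values lie near the low end of the scale, which ran from 1.87 to 14.4, and a difference could go unseen there. The difference in tumours minus that in marrow was -0.93 (SE 0.16, limma adjusted p = 0.0033), among 58 genes called, 0.319% of all. The call was lost without wild type marrow 1 (-0.80, adjusted p = 0.093), with probe sets averaged (-0.62, 0.081) and with array weights (-0.95, 0.085). A second Cxcr6 probe set gave 0.16 in marrow, and the gene overlaps Fyco1 in the annotation. The next by p, Ccr7 at -0.66 (SE 0.27) and Ccl22 at -0.37 (SE 0.16), had adjusted p of 0.53 and 0.54. At an unadjusted p under 0.05 there were 5 members, against 7.83% of genes. Without wild type marrow 2 Cxcr6 stayed called at -1.06, and Cxcr2 at -0.79 and Ccl17 at 0.84 passed too, beside 422 genes in all.

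Chemokines varied widely from tumour to tumour. By SD over the 24 tumours 11 of 38 members were in the top 5% of genes and 4 in the top 1%. Ligands carried this: 22 of 27 had an SD above the median of all genes, against 6 of 11 receptors. The most variable was Cxcl9, with an SD of 1.40, which ran from 3.37 through a median of 3.85 to 9.66. Next came Cxcl13, the B cell attractant of lymphoid follicles, with 1.25 over 4.30 to 9.54, and Ccl8 with 1.13 over 4.35 to 9.16. Cxcl12, with 1.02, Ccl9, with 0.89 over 4.28 to 8.03, and Ccl6, with 0.86 over 6.41 to 9.69, followed.

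A few tumours held many of the high values. Wild type tumour 5 was the highest of the 24 for 9 members, wild type tumour 1 for 6 and deficient tumour 10 for 4. How many of all genes were highest in each of these tumours was not counted. The counts therefore show nothing particular to chemokines. In wild type tumour 5 Cxcl9 was at 9.66, Cxcl10 at 6.25, Ccl5 at 6.94, Ccl8 at 9.16, Ccl24 (eotaxin-2) at 7.22 and Ccr1 at 5.72. The other tumours reached at most 6.59 for Cxcl9, 4.32 for Cxcl10 and 5.61 for Ccl5. This tumour also had the highest T and NK cell list mean, 4.2, and the lowest endothelial one, 4.97. In wild type tumour 1 Cxcl13 was at 9.54, Cxcl12 at 8.17, Cxcl14 at 7.35 and Cx3cr1 at 6.27, and it had the highest list means of macrophages, 8.32, fibroblasts, 8.90, and B cells, 5.38, and the lowest sympathoadrenal one, 10.14. Deficient tumour 10 was highest for Ccl6 at 9.69, Ccl9 at 8.03, Ccl12 at 5.35 and Ccl7 at 4.75.

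**Figure D4:**
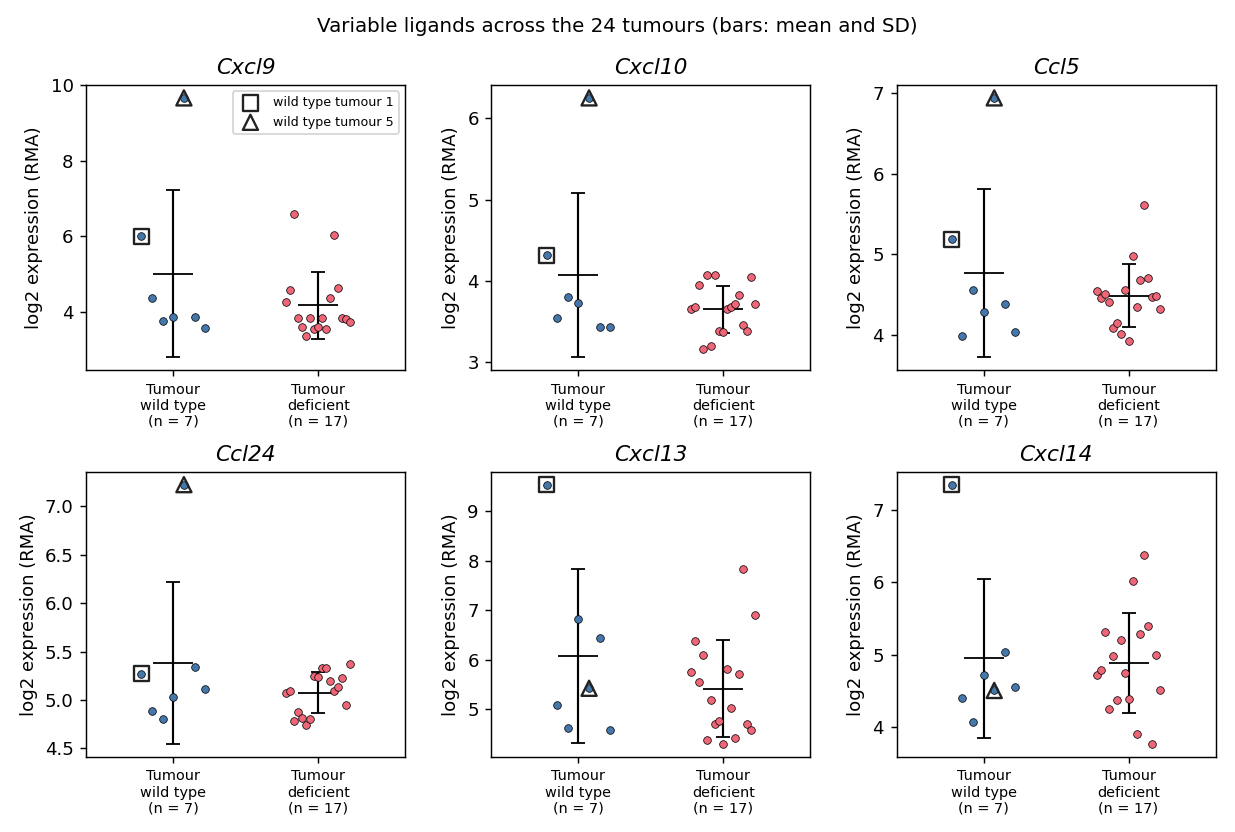
Log2 expression (RMA) of 6 ligands in the 7 wild type and 17 deficient tumours; points are tumours, bars the group mean and 1 SD, the square marks wild type tumour 1 and the triangle wild type tumour 5. The triangle is the highest point for Cxcl9 (9.66), Cxcl10 (6.25), Ccl5 (6.94) and Ccl24 (7.22), the square for Cxcl13 (9.54) and Cxcl14 (7.35).

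The promoters of Cxcl9 and Cxcl10 are shown because both genes peaked in the same tumour. They lie close together on the minus strand, at chr5:92328080-92328329 and chr5:92348890-92349139 of GRCm38.p6, and the runs are again the 250 bases before the RefSeq start, 5′ to 3′. Capitals mark matches to TATAAA, to GAAA, any 2 bases and GAAA again, the core of the interferon-stimulated response element, or to the NF-kappaB consensus, all searched on both strands except TATAAA, which was searched on the sense strand alone.
Cxcl9: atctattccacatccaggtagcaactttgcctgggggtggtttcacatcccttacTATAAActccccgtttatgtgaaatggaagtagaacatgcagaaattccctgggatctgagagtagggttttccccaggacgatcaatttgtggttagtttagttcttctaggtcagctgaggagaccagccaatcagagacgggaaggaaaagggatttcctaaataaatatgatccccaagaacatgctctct
Cxcl10: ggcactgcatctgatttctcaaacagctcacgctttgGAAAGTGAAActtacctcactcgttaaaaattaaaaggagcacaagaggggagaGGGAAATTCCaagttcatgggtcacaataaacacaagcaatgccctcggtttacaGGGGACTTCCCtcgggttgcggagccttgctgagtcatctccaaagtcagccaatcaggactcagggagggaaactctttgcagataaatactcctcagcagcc
Cxcl10 holds GAAAGTGAAA 213 bases before the start and NF-kappaB matches at 159 and at 104 and 103, the last pair overlapping. Cxcl9 holds only TATAAA, 195 bases before the start. RefSeq gave such a run for 28 of the 39 genes. The NF-kappaB consensus was in 6 of the 28 (21.4%) and in 8.23% of 27025 genes, the response element core in 3 (10.7%) and 3.46%, TATAAA in 8 (28.6%) and 8.94%, and TTCCNGGAA, the gamma-interferon activated sequence, in 0 and 1.09%. The NF-kappaB matches were in Ccl9, Cxcl1, Cxcl2, Cxcl10, Ccr1 and Ccr3. A match describes the letters of the run and is no evidence of binding.

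Many ligands varied over tumours with the markers of other cells. Each of the 38 members was compared with the list means of macrophages, T and NK cells, endothelium and fibroblasts, 152 relations in all, and 22 passed an adjusted permutation p of 0.05 by Pearson's r, 13 of them also by Spearman's rho. With macrophage markers 10 members were related on the probe sets used, all positively and all ligands. The receptor Ccr2 depended on the probe set here too. Its r was -0.0902 on the one used and 0.616 with probe sets averaged (permutation p = 0.0013, unadjusted). Ccl6 had an r of 0.879 (permutation p = 1e-05, the smallest 100000 resamples can give, adjusted p = 0.00051; rho 0.927), and 0.870 without the 2 tumours farthest from the median of the marker mean. Ccl9 had an r of 0.816 (rho 0.907) and Cxcl12 of 0.795 (rho 0.753), with the same permutation p and adjusted p, and 0.836 and 0.677 without the 2 farthest tumours. Within the lower and the higher title series r was 0.924 and 0.895 for Ccl6, 0.889 and 0.781 for Ccl9 and 0.839 and 0.772 for Cxcl12. In the series, which hold fewer tumours, Cxcl12 passed in neither and Ccl9 in the lower alone. Cxcl14, Ccl3, Cxcl13, Cxcl16, Ccl8, Ccl12 and Ccl4 followed, with r from 0.721 to 0.624. Without the 2 farthest tumours these were, in that order, 0.615, 0.541, 0.498, 0.554, 0.603, 0.610 and 0.440. Ccl3, Cxcl13, Cxcl16 and Ccl4 then no longer passed.

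With T and NK cell markers 6 members were related on the probe sets used. Ccr2 and Cxcr6 were not among them, with r of 0.266 and 0.409. With probe sets averaged these were 0.764 and 0.683 (permutation p = 3e-05 and 0.00016, unadjusted). Ccl24 had an r of 0.885 (permutation p = 2e-05, adjusted p = 0.00076, rho 0.696) and 0.694 without the 2 farthest tumours. Ccl5, which T and NK cells make, had 0.843 (permutation p = 6e-05, adjusted p = 0.0018, rho 0.565) and 0.499. Cxcl9 had 0.732 (permutation p = 0.0036, adjusted p = 0.031), but a rho of 0.263 and 0.102 without the 2 farthest tumours, so that relation rests on them. Within the lower and the higher series r was 0.854 and 0.938 for Ccl24, 0.833 and 0.867 for Ccl5 and 0.496 and 0.902 for Cxcl9. Cxcl16, Cxcr5 and Ccl8 also passed, with r of 0.638, 0.586 and 0.574, and 0.397, 0.509 and 0.177 without the 2 farthest. Of the 6 members, Ccl24 alone still passed without the 2 farthest tumours.

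With the endothelial markers 1 relation passed, that of Cxcr4, with an r of 0.588 (permutation p = 0.0026, adjusted p = 0.023) and a rho of 0.692, 0.626 without the 2 farthest tumours, and r was 0.581 within the lower title series and 0.548 within the higher. The Cxcr4 relation did not pass within either series. Cxcl12 had an r of 0.386 with the same markers (permutation p = 0.062, adjusted p = 0.232; rho 0.449), at 0.0305 in the lower and 0.636 in the higher series, and whether the 2 genes differ in this was not tested. The r of Cxcr4 with macrophage markers was 0.217 (permutation p = 0.308). Cxcl12 was related to macrophage and fibroblast markers, the latter with an r of 0.643 (permutation p = 0.00093, adjusted p = 0.010, rho 0.663), 0.504 without the 2 farthest, and 0.767 and 0.556 in the series. The lists were highest in part in the same tumours, and the list means are not independent of each other. With fibroblast markers Cx3cr1, Cxcl14 and Ccl11 also passed, with r of 0.574, 0.563 and 0.540, and Cxcr2 with -0.647. Without the 2 farthest tumours these were 0.0152, 0.384, 0.471 and -0.430, so the Cx3cr1 relation rests on those tumours. None of the fibroblast relations, that of Cxcl12 included, passed without the 2 farthest tumours. Nor did any pass within either title series, which hold fewer tumours. The correlations are of levels in bulk tissue, and which cells hold the RNA was not tested.

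**Figure D5:**
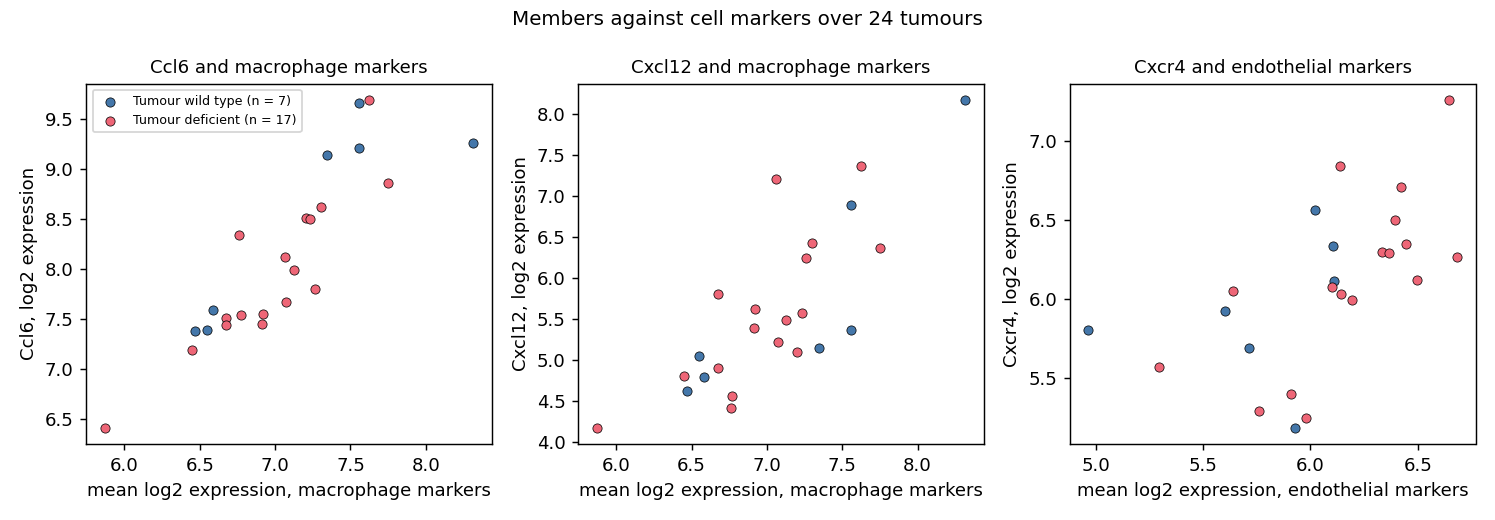
Ccl6 (left) and Cxcl12 (middle) against the mean log2 expression of macrophage markers, and Cxcr4 (right) against that of endothelial markers, in 24 tumours; points are tumours, blue wild type and red deficient. Pearson's r is 0.879, 0.795 and 0.588, and wild type tumour 1 is the point at the upper right of the middle panel.

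On the probe sets used, no ligand was found to vary with its receptor over tumours. Of 14 pairs of a ligand and its known receptor none passed an adjusted permutation p of 0.05, and 2 had an unadjusted p under 0.05 by Pearson's r. The larger was Ccl5 with Ccr1, an r of 0.637 (permutation p = 0.0092, adjusted p = 0.129, rho 0.329), which was 0.348 without the 2 farthest tumours, 0.0747 in the lower and 0.665 in the higher series. With probe sets averaged 2 pairs passed, Ccl5 with Ccr1 at 0.664 and Cxcl16 with Cxcr6 at 0.557. Cxcl9 and Cxcl10 had r of 0.171 and 0.104 with Cxcr3. Ccl2 and Ccl7 had -0.121 and 0.131 with Ccr2 on the probe sets used. With probe sets averaged they had 0.176 and 0.379, so the Ccl2 value changed sign. Of the 11 receptors all but Ccr1, Cxcr4 and Cx3cr1 had an SD over tumours of 0.14 to 0.21.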

How the data were processed

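Total RNA (Trizol, per the labels' protocols) from 24 tumours and 5 marrow samples was labelled from 100 ng by a two-cycle protocol and hybridised to 1 array per sample, per the labels' protocols. The deposited values are log2 expression made by the authors with RMA in Partek 6.6, per the submitters' processing notes; scanner files were not used here. Values ran from 1.87 to 14.4, and arrays of a group correlated at 0.972 to 0.993, with no identical pair. The number of arrays limits the precision.

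Of 45101 probe sets, 64 controls were left out; 34945 map to 1 gene symbol, 932 to several and 9160 to none in the platform annotation, and 34741 symbols were matched to current names by Entrez ID. The probe set of highest mean was used for each gene (18193 in all, 9010 with several), so that a dim but specific probe set can be passed over. Linear models were fitted to all genes with limma 3.58.1 (R 4.3.3, lmFit and eBayes), two-sided, within tumours, within marrow, and over 4 groups for the tissue comparison and the interaction. Calls are Benjamini-Hochberg adjusted p under 0.05 over all genes. Correlations over tumours used 100000 resamples (Python 3.11.15, numpy 2.4.6, pandas 2.3.3); figures used matplotlib 3.10.9. The limma fits within tumours, within marrow and between tissues were tested on simulated data. The interaction and the correlations were not tested in that way.

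The members, marker lists and related lists were chosen with earlier results of these data known. Genes with values given are Cxcl12, Cxcr4, the members called between tissues, the 6 of smallest p in each genotype comparison, the 3 of smallest p in the interaction, the 6 most variable over tumours, for each marker list the 3 of largest r, the 3 of smallest p of each related list, and members whose probe sets disagree in sign; others were chosen after their values were seen. Groups follow the genotype and tissue labels. Sample titles carry numbers of a lower and a higher series, of unstated meaning, which split the tumours into 10 and 14. The marrow samples all carry numbers of the higher series, so title series and tissue are not balanced in the tissue comparison. Alternatives were the mean of probe sets, a mean log2 of at least 5, quantile normalization, median centring, array weights, an intensity trend, the title series, RNA quality, single genotypes, other fits and leaving out each sample; the probe set of highest mean in either tissue was added after seeing the data.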

Additional observations from a re-analysis of the deposited data

Results flagged for a closer look

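In 6 of 38 members 1 of the 7 wild type tumours, the only group of 4 to 10 samples, stood far from the rest, with a gap above 0.568 of the group's range. Chance marks about 1 group in 20. In wild type tumour 5 Ccl5 was at 6.94 (next wild type tumour 5.19), Ccl24 at 7.22 (next 5.34), Cxcl9 at 9.66 (next 5.995) and Cxcl10 at 6.25 (next 4.32). In wild type tumour 1 Cxcl14 was at 7.35 (next 5.03) and Cx3cr1 at 6.27 (next 4.68). These members share a tumour and are not separate observations.

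Without wild type tumour 5 the tumour difference between genotypes was 0.082 for Ccl5, -0.23 for Ccl8, 0.0013 for Ccl24, -0.064 for Cxcl9 and -0.061 for Cxcl10, against -0.28, -0.64, -0.31, -0.84 and -0.42 with it.

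The genotype difference of Cxcr6 differed between tumours and marrow by -0.93, by the interaction test in limma. It rests on 2 wild type marrow samples, and sex moves with genotype in marrow.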

How the results depend on the processing

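Of the values for single genes and pairs under alternatives other than leaving out a sample, 571 kept their direction and side of the threshold, 71 no longer passed it, 11 newly passed it and 23 turned sign; under leaving out a sample these were 1390, 11, 3 and 17. No paired analysis was possible because the labels give the groups no shared replicate numbers. In tumours, deficient minus wild type, the mean of probe sets gave 0.070 for Cx3cl1 and 0.0043 for Cxcl12, array weights 0.17 for Cxcl12, the higher title series 0.089 for Cxcl12 and the lower series 0.14 for Cxcl2. Between tumours and marrow the mean of probe sets gave 0.049 for Cxcl1 and -0.39 for Cxcl14; repeated quantile normalization 0.20 for Ccl7 and -0.015 for Ccl25; median centring -0.055 for Ccl11, -0.14 for Ccl25, -0.13 for Cxcl9 and -0.14 for Cxcl14; array weights 0.012 for Ccl24 and -0.084 for Cxcl14; the higher series 0.013 for Ccl7 and 0.20 for Ccl24; wild type samples alone 0.016 for Ccl24, 0.33 for Cxcl10 and -0.078 for Cxcl14; deficient samples alone 0.043 for Ccl7 and -0.041 for Cxcl9. None of these was a called value turning to a call of the other sign. Leaving out samples, the tissue difference ran from -0.17 to 0.068 for Ccl24, -0.086 to 0.061 for Ccl7, -0.25 to 0.54 for Cxcl14 and -0.23 to 0.29 for Cxcl9, and the tumour genotype difference from -0.40 to 0.0013 for Ccl24 and -0.33 to 0.26 for Cxcl12. The r of Cxcl12 with Cxcr4 was -0.142 in the lower series.

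In marrow 4 genes were called, 2 with the mean of probe sets, 2 with the low filter, and 83 with 1 member, Cxcr6, in the four-group fit. Between tissues the low filter, which leaves fewer genes to test, gave 9170 genes and 8 members lower; members higher were 1 with median centring, array weights or wild type samples alone, and 1 to 3 leaving out a sample. For the interaction 0 members were lower with the mean of probe sets or array weights. The low filter also gave 0, but it leaves out Cxcr6, whose mean was 3.14, so it could not test that call. Called genes were 19 with the filter, 124 with quantile normalization and 13 with array weights. Leaving out a sample gave 32 to 422 genes, with 0 to 2 members lower and 0 to 1 higher. Against 22 relations to cell markers, 11 passed without the 2 farthest tumours. In the lower series 7 passed and in the higher 1, but the series hold fewer tumours. The 11 and the 7 include relations outside the 22, so fewer of the 22 kept their call. With the mean of probe sets 2 ligand and receptor pairs passed. The cause of the other changes was not tested. Low signal limits the set: 17 of 38 members had a mean under 5 in both tissues.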

Other observations

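Members that lie side by side in the genome can be described together, against 42.2% of all genes called lower in tumours. Of Ccr9, Cxcr6, Ccr1, Ccr3 and Ccr2 5 of 5 were lower, from -6.06 to -0.57, of Ccl22, Cx3cl1 and Ccl17 3 of 3, from -0.59 to -0.26, and of Cxcl9, Cxcl10 and Cxcl11 1 of 3. With so few genes in each, these counts show nothing particular to a cluster. At the level of probe sets 47 of the 63 of the members were called between tissues, against 70.3% of all 45037 probe sets.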
